A study of Mus musculus with 12 samples.

Results

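Interferon-induced GTPases are described here through 10 genes, 6 guanylate-binding proteins (Gbp2, Gbp3, Gbp4, Gbp5, Gbp7 and Gbp9) and 4 immunity-related GTPases (Irgm1, Igtp, Iigp1 and Tgtp1). They were taken by symbol from a table of 28188 genes, and all 10 symbols were found. RNA came from isolated splenic B cells and splenic dendritic cells of mice aged 12 weeks. NOD mice, an inbred strain that becomes diabetic spontaneously through autoimmune attack on the pancreatic islets, were set against NOD.Idd2 mice, which carry the diabetes locus Idd2 of B10 origin. Both cell types of both strains were sequenced, which gave 4 groups of 3 libraries. The labels record no treatment and do not say whether the libraries of a group came from separate animals, so the p-values below measure only the spread between these samples.

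Guanylate-binding proteins and immunity-related GTPases are among the genes most strongly induced by interferon gamma. Interferon gamma binds the receptor formed by Ifngr1 and Ifngr2, the kinases Jak1 and Jak2 are activated, and transcription factors then bind gamma-activated sites in DNA, while the induced factor IRF1 and related factors bind interferon-stimulated response elements. The guanylate-binding proteins assemble on the membranes of vacuoles that hold bacteria or parasites and on bacteria free in the cytosol. Irgm1 and Igtp (also called Irgm3) are regulatory members of the immunity-related GTPases that stay on the cell's own membranes, and Iigp1 (Irga6) and Tgtp1 (Irgb6) are effector members that load onto pathogen vacuoles.

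Promoter sequences are shown because the members are known targets of the factors named above. RefSeq promoter windows on GRCm38.p6, from 250 bases before to 50 bases after the start site, were matched for 7 of the 10 members, that is all but Gbp4, Gbp9 and Iigp1. Both strands were searched for the gamma-activated site TTCNNNGAA and for the core of the interferon-stimulated response element, which is GAAA and GAAA with 2 bases of any kind between them. In each line below, the bases from 110 to 11 before the start site are given 5′ to 3′ on the strand of the gene, and capitals mark matches to either motif. A core on the opposite strand reads TTTC and TTTC.
Gbp2, chr3:142620553-142620652, plus strand: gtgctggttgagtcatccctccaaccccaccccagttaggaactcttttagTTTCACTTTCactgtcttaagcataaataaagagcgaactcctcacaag
Gbp3, chr3:142559934-142560033, plus strand: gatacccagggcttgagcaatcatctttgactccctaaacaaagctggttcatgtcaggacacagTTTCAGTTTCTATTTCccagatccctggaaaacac
Gbp5, chr3:142496824-142496923, plus strand: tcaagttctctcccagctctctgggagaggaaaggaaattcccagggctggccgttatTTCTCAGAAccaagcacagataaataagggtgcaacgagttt
Gbp7, chr3:142530226-142530325, plus strand: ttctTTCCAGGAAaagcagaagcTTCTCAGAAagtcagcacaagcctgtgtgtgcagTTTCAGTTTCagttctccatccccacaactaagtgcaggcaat
Irgm1, chr11:48871431-48871530, minus strand: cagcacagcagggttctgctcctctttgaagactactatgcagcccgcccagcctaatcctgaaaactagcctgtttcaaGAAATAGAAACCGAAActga
Igtp, chr11:58199446-58199545, plus strand: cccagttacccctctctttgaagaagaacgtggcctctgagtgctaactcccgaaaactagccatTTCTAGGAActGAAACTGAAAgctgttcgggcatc
Tgtp1, chr11:48992257-48992356, minus strand: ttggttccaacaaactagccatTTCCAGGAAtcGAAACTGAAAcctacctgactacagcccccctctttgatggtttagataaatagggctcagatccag

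All 7 genes had a window with the response element core, the second window of Gbp3 having neither motif. The core was found in 3.44% of the 32851 promoter windows in the table. In Gbp2 its first base was at position -59 from the start site, in Gbp7 at -53, in Igtp at -34 and in Tgtp1 at -77. Gbp3 and Irgm1 each held a pair of overlapping matches, beginning at -45 and -39 in Gbp3 and at -30 and -24 in Irgm1. The match in Gbp5, at -165, lies upstream of the bases printed. The gamma-activated site was found in 4 of the 7, Gbp5, Gbp7, Igtp and Tgtp1, against 8.3% of all windows, and 0.454% of all windows held both motifs. In Igtp and Tgtp1 the gamma-activated site (TTCTAGGAA and TTCCAGGAA) ended just before a response element core with the letters GAAACTGAAA in both genes. Gbp7 carried 2 gamma-activated sites, at -106 and -87, and Gbp5 carried 2, at -245 and -52. A match is a description of these letters and no measure of binding.

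**Figure D1:**
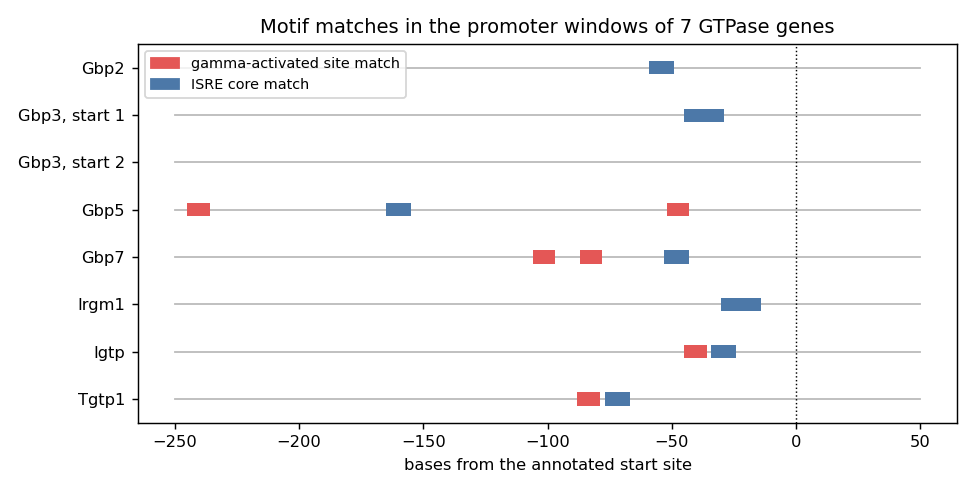
Each grey line is a promoter window, from 250 bases before to 50 bases after the annotated start site at 0 on the axis in bases. Bars mark matches to the gamma-activated site (red) and the response element core (blue). Blue bars are present for all 7 genes and red bars for Gbp5, Gbp7, Igtp and Tgtp1, while the second annotated start of Gbp3 has neither.

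The genes lie in clusters, given here on GRCm38. On chromosome 3, plus strand, Gbp5 spans 142493978 to 142522344, Gbp7 spans 142530342 to 142550149, Gbp3 spans 142560026 to 142573209 and Gbp2 spans 142620602 to 142638008. On chromosome 5, minus strand, Gbp9 spans 105077630 to 105139539 and Gbp4 spans 105115767 to 105139586, and their exons share 60 bases. On chromosome 11, Irgm1 (48861968 to 48871683) and Tgtp1 (48985327 to 48994172) lie on the minus strand and Igtp (58199556 to 58207591) on the plus strand. Iigp1 lies on chromosome 18 from 60376027 to 60392634. Near-identical copies limit what a count can be assigned to: of all 50-base stretches of Tgtp1 exons, 81.2% occurred in the exons of another gene, 79.4% in Tgtp2, so its values are uncertain. The shared part was 12.7% for Gbp7 and 11.8% for Igtp, the latter all with its neighbour Irgm2, and 8.05% or less for the other members.

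Depth was 40344883 to 44632276 counts per library in B cells and 8663421 to 30337812 in dendritic cells, the lowest being NOD.Idd2 replicate 3. Summed markers of B cells stood at 14275 to 14863 CPM (counts scaled to library size with TMM factors) in B cell libraries and 142 to 214 in dendritic cell libraries, and 8 dendritic cell markers at 11.4 to 14.6 and 3835 to 4126 CPM. The 10 T cell markers summed to 92.0 to 153 CPM in B cell and 536 to 618 in dendritic cell libraries, although in NOD 6 of the 10 were below 0 in dendritic cells minus B cells (median log2 -0.22). The 9 macrophage and monocyte markers summed to 56.7 to 63.9 and 1094 to 1329 CPM. Xist was at 1564 to 2088 CPM in every B cell library and at 1 to 4 counts in every dendritic cell library, whereas 4 Y-linked genes (Ddx3y, Eif2s3y, Kdm5d and Uty) were at 0 counts in all 6 B cell libraries and at 83.6 to 306 CPM in dendritic cells. Cell type and sex therefore cannot be told apart in any comparison of dendritic cells with B cells, while each strain comparison was made within 1 sex. In B cells, replicate 3 of both strains deviated from its group in the same direction over the 9783 genes with a mean of at least 5 CPM (r = 0.922 between the pair).

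Gbp9 was the most abundant of the members in B cells and Gbp2 in dendritic cells. Per kilobase of exon, Gbp9 was at 48.2 ± 4.14 CPM in NOD B cells (SD, n = 3) and 48.8 ± 2.62 in NOD.Idd2 B cells. Irgm1 followed at 20.8 ± 0.643 and 20.9 ± 1.55 CPM per kilobase. The next 3 genes in NOD B cells were Igtp at 16.7 ± 1.15, Gbp4 at 15.7 ± 1.34 and Gbp3 at 15.4 ± 0.819 CPM per kilobase. Their ranges overlapped, although Igtp was the highest of the 3 in every NOD B cell library. Below them came Gbp2 at 12.2 ± 1.10, Gbp5 at 9.38 ± 0.0732 and Gbp7 at 6.53 ± 0.367 CPM per kilobase. The effector genes Tgtp1 at 0.344 ± 0.108 and Iigp1 at 0.0892 ± 0.0139 CPM per kilobase were far below the other members. The order of the middle genes changed when the longest transcript was used as the length: Gbp4 then stood above Gbp3 and Igtp.

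In NOD dendritic cells Gbp2 came first at 58.3 ± 4.61 CPM per kilobase, and Gbp9 second at 46.2 ± 4.20. Gbp3 at 23.9 ± 2.53, Irgm1 at 19.5 ± 1.74 and Igtp at 17.7 ± 1.85 CPM per kilobase formed a middle group in which neighbours differed by little more than their SD. Gbp4 at 12.0 ± 2.20 and Gbp5 at 10.3 ± 0.846 overlapped in range, although Gbp4 was above Gbp5 in every NOD dendritic cell library by exon length. Gbp7 was at 5.71 ± 0.670 CPM per kilobase. Tgtp1 and Iigp1 again came last, at 0.795 ± 0.120 and 0.413 ± 0.0659. NOD.Idd2 dendritic cells gave the same order by mean. With the longest transcript as the length, Igtp fell below Gbp4 and Gbp5 in dendritic cells of both strains. Irgm1 then stood above Gbp3 in NOD only, and Iigp1 above Tgtp1 in NOD.Idd2 only.

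**Figure D2:**
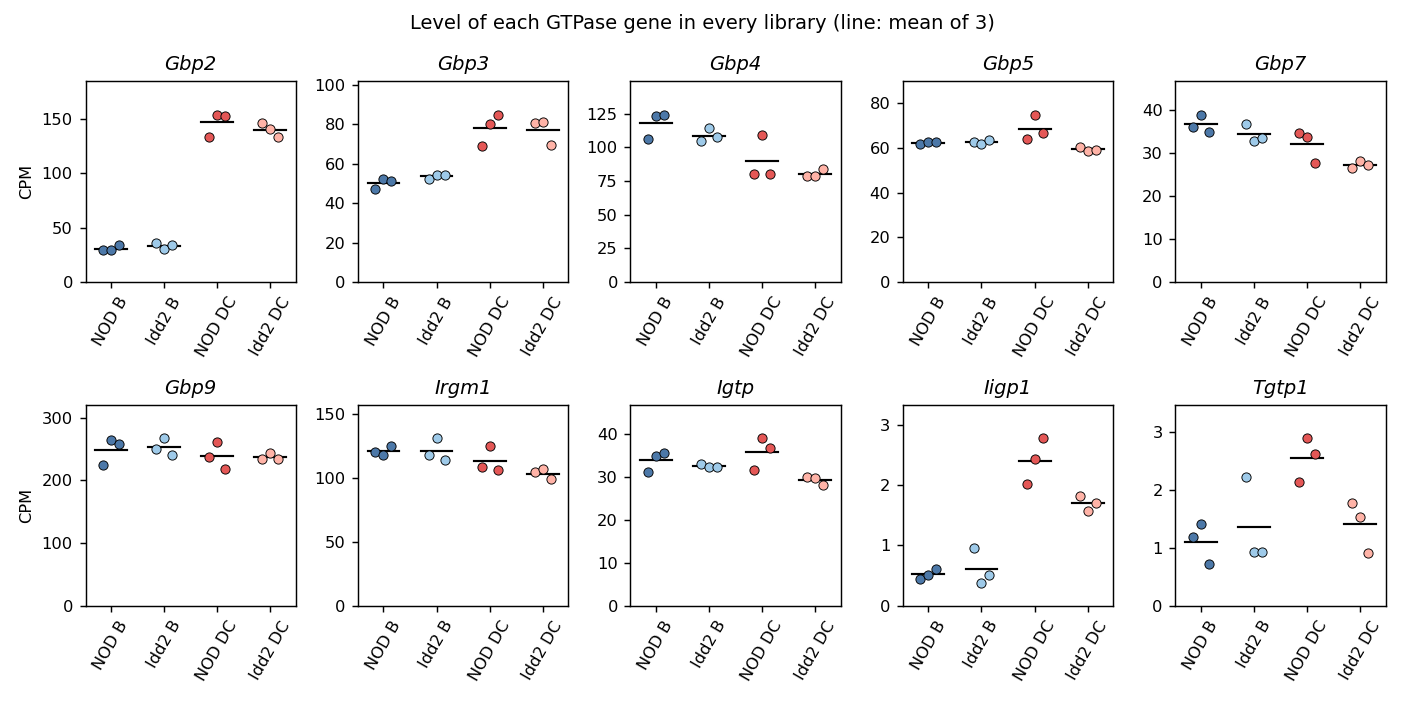
Each panel plots the CPM of 1 gene (y axis, from 0) in the 4 groups (x axis, Idd2 standing for NOD.Idd2 and DC for dendritic cells), with a point per library and a line at the mean of 3. The dendritic cell points of Gbp2 lie at 133 to 154 CPM and its B cell points at 29.1 to 35.6, whereas the points of Gbp9 and Irgm1 from all groups lie close together.

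The members differed from each other in how they separated the cell types. In NOD, 7 of 10 passed edgeR's quasi-likelihood test at an adjusted p of 0.05, where 76.4% of all 16588 genes tested did. Of these, 5 were higher in dendritic cells (Gbp2, Gbp3, Gbp5, Iigp1 and Tgtp1), beside 37.7% of all genes, and 2 lower (Gbp4 and Gbp7), beside 38.7%. In NOD.Idd2, 6 of 10 passed, against 75.7% of all genes: Gbp2, Gbp3 and Iigp1 were higher (36.7% of all genes) and Gbp4, Gbp7 and Irgm1 lower (38.9%). The members' median log2 difference was 0.11 in NOD and -0.08 in NOD.Idd2, beside -0.04 and -0.06 over all genes. The share of members called was no larger than the share of all genes.

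Gbp2, a guanylate-binding protein that targets pathogen vacuoles, differed between the cell types in both strains. It was at 29.1, 29.2 and 33.9 CPM in NOD B cells, 35.6, 30.4 and 34.4 in NOD.Idd2 B cells, 133, 154 and 153 in NOD dendritic cells and 146, 140 and 133 in NOD.Idd2 dendritic cells. All dendritic cell libraries were above all B cell libraries. The fold was 4.78 in NOD (95% interval 4.21 to 5.42, log2 2.26, SE 0.08, edgeR adjusted p = 4.89e-11) and 4.19 in NOD.Idd2 (3.69 to 4.75, log2 2.07, SE 0.08, adjusted p = 1.23e-10). In NOD the interval of Iigp1, given below, overlapped that of Gbp2.

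Gbp3, its relative in the same cluster, was at 47.1, 52.2 and 51.2 CPM in NOD B cells, 52.3, 54.4 and 54.4 in NOD.Idd2 B cells, 68.8, 80.1 and 84.9 in NOD dendritic cells and 80.7, 81.0 and 69.3 in NOD.Idd2 dendritic cells. Its cell types did not overlap either, with a smaller log2 difference of 0.64 (SE 0.08, edgeR adjusted p = 1.0e-05) in NOD and 0.53 (SE 0.08, adjusted p = 6.06e-05) in NOD.Idd2. Gbp5, which promotes inflammasome activation, was at 61.7, 62.5 and 62.5 CPM in NOD B cells, 62.6, 61.8 and 63.4 in NOD.Idd2 B cells, 64.1, 74.9 and 66.7 in NOD dendritic cells and 60.3, 58.5 and 59.2 in NOD.Idd2 dendritic cells. The 6 B cell values of Gbp5 lay within 61.7 and 63.4 CPM, and its dendritic cells were above them in NOD and below them in NOD.Idd2. It passed in NOD (log2 0.14, SE 0.05, edgeR adjusted p = 0.0287) and missed the threshold in NOD.Idd2 (log2 -0.08, SE 0.05, adjusted p = 0.201). The NOD call was lost without NOD dendritic cell replicate 2 (adjusted p = 0.374), without any 1 of the 3 NOD B cell libraries (0.0581 to 0.0777) and with no filter on low counts (0.113).

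Gbp4 and Gbp7 were lower in dendritic cells. Gbp4 was at 106, 123 and 124 CPM in NOD B cells, 104, 114 and 107 in NOD.Idd2 B cells, 80.2, 109 and 80.4 in NOD dendritic cells and 78.6, 78.6 and 83.8 in NOD.Idd2 dendritic cells. NOD dendritic cell replicate 2 reached into the range of the B cells, and the NOD.Idd2 groups did not overlap. The log2 difference was -0.39 (SE 0.10, edgeR adjusted p = 0.00418) in NOD and -0.44 (SE 0.11, adjusted p = 0.00223) in NOD.Idd2. Gbp7, which takes part in the defence of macrophages against bacteria, was at 36.1, 39.0 and 34.9 CPM in NOD B cells, 36.8, 32.7 and 33.5 in NOD.Idd2 B cells, 34.7, 33.7 and 27.8 in NOD dendritic cells and 26.5, 28.1 and 27.2 in NOD.Idd2 dendritic cells. Its groups did not overlap within either strain, though in NOD the gap was between 34.7 and 34.9 CPM. In NOD.Idd2 its log2 difference was -0.33 (SE 0.08, edgeR adjusted p = 0.00304). In NOD it was -0.19 (SE 0.08, adjusted p = 0.0452), a call that was lost without NOD dendritic cell replicate 3 (0.418), NOD B cell replicate 1 (0.0653) or 2 (0.147), in DESeq2 (0.0700) and in 4 other alternatives (0.0547 to 0.131).

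Gbp9 and Igtp passed in neither strain. Gbp9 was at 225, 265 and 258 CPM in NOD B cells, 250, 267 and 240 in NOD.Idd2 B cells, 238, 261 and 218 in NOD dendritic cells and 233, 244 and 234 in NOD.Idd2 dendritic cells. All 4 groups overlapped, and the fold of dendritic cells over B cells was 0.959 (95% interval 0.857 to 1.07) in NOD and 0.939 (0.839 to 1.05) in NOD.Idd2. Gbp4 and Gbp9 begin at nearly the same place on chromosome 5, and their cell type differences were not tested against each other. Their fold intervals overlapped in both strains, that of Gbp4 being 0.650 to 0.891 in NOD and 0.629 to 0.865 in NOD.Idd2.

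Among the regulatory immunity-related GTPases, Irgm1, which is needed for resistance to mycobacteria and for the survival of activated lymphocytes, was at 120, 118 and 125 CPM in NOD B cells, 118, 131 and 114 in NOD.Idd2 B cells, 108, 125 and 107 in NOD dendritic cells and 105, 107 and 99.0 in NOD.Idd2 dendritic cells. The cell types overlapped in NOD and not in NOD.Idd2. The log2 difference was -0.10 (SE 0.07, edgeR adjusted p = 0.219) in NOD and -0.22 (SE 0.07, adjusted p = 0.0103) in NOD.Idd2, and the difference between these was not past the threshold (adjusted p = 0.788). The NOD.Idd2 call was lost without the shallow replicate 3 of its dendritic cells (0.0876), and NOD passed without its dendritic cell replicate 2 (0.0130). Igtp, which is found on endoplasmic reticulum and lipid droplets, was at 31.2, 34.8 and 35.5 CPM in NOD B cells, 33.0, 32.4 and 32.4 in NOD.Idd2 B cells, 31.7, 39.0 and 36.7 in NOD dendritic cells and 30.0, 29.6 and 28.2 in NOD.Idd2 dendritic cells. Its log2 difference between cell types was 0.08 (SE 0.07, edgeR adjusted p = 0.324) in NOD and -0.15 (SE 0.08, adjusted p = 0.0877) in NOD.Idd2, and the NOD value passed without NOD dendritic cell replicate 1 (0.0186).

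The effector genes were at 8 to 90 counts per library, so their values carry the largest errors. Iigp1 was at 0.445, 0.508 and 0.605 CPM in NOD B cells, 0.961, 0.378 and 0.506 in NOD.Idd2 B cells, 2.01, 2.43 and 2.78 in NOD dendritic cells and 1.82, 1.57 and 1.70 in NOD.Idd2 dendritic cells. Dendritic cells were above B cells in every library, by 4.61-fold (95% interval 2.92 to 7.29, edgeR adjusted p = 2.44e-05) in NOD and 2.75-fold (1.72 to 4.40, adjusted p = 0.000948) in NOD.Idd2. Tgtp1 was at 1.18, 1.40 and 0.722 CPM in NOD B cells, 2.22, 0.922 and 0.920 in NOD.Idd2 B cells, 2.13, 2.89 and 2.62 in NOD dendritic cells and 1.78, 1.53 and 0.909 in NOD.Idd2 dendritic cells. It passed in NOD at 2.31-fold (1.33 to 4.01, adjusted p = 0.00906) and not in NOD.Idd2 at 1.09-fold (0.613 to 1.94, adjusted p = 0.778). NOD.Idd2 B cell replicate 1 was the highest B cell library for Tgtp1 and for Iigp1.

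**Figure D3:**
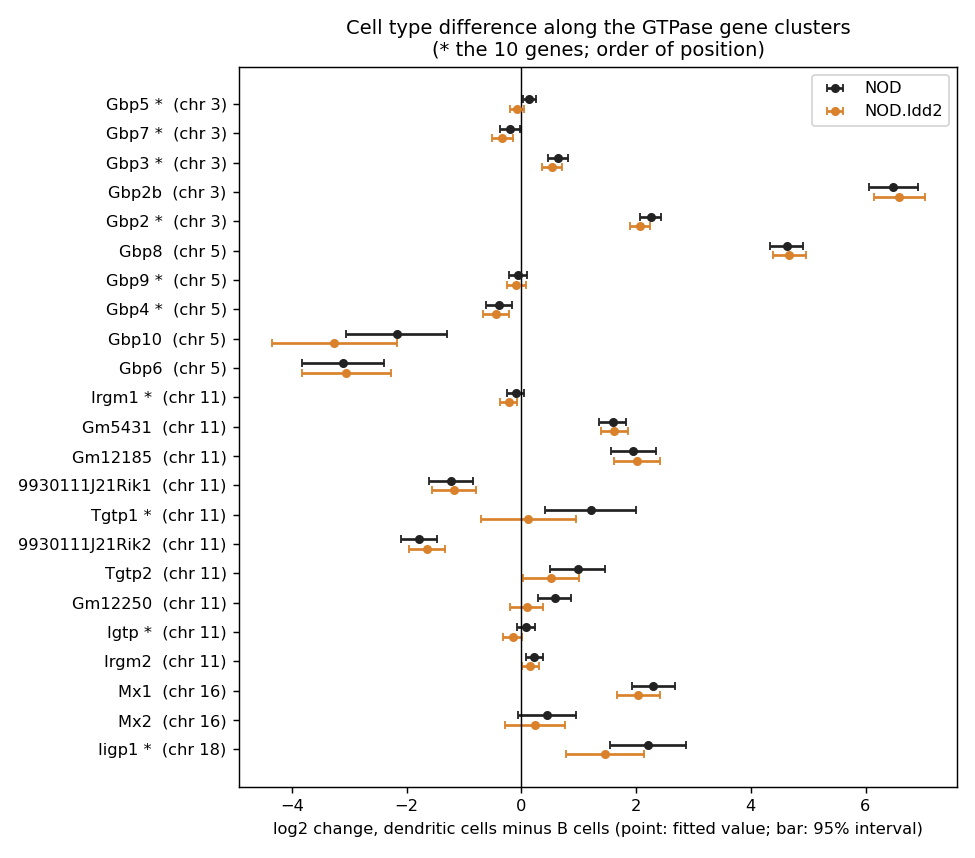
The x axis gives the fitted log2 difference of dendritic cells minus B cells with its 95% interval, in NOD (black) and NOD.Idd2 (orange), for the 10 genes (starred) and the other tested interferon-induced GTPases in order of position. Gvin1 is left out because its NOD.Idd2 dendritic cell libraries are at 0 counts. Gbp2b lies at 6.49 and 6.59 and Gbp8 at 4.62 and 4.67, far to the right of most starred genes.

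Several relatives of the members lay further apart between the cell types than any member. Of 18 other interferon-induced GTPases, 14 were tested, and in NOD 8 were higher and 5 lower in dendritic cells, in NOD.Idd2 7 and 5. Over all genes 37.7% were higher and 38.7% lower in NOD, 36.7% and 38.9% in NOD.Idd2. Gbp2b, which lies next to Gbp2, was at 0.665 ± 0.0127 CPM in NOD B cells and 60.1 ± 4.76 in NOD dendritic cells (SD, n = 3, log2 6.49, SE 0.19, edgeR adjusted p = 6.37e-12). Gbp8, which shares 61 exon bases with Gbp4 and 60 with Gbp9 and was picked for that after its values were seen, was at 9.59 ± 0.433 and 237 ± 35.2 CPM (log2 4.62, SE 0.13). Neighbouring genes of 1 cluster therefore had differences of opposite sign. Gbp6 was the other way round, at 2.63 ± 0.763 CPM in NOD B cells and 0.300 ± 0.112 in NOD dendritic cells (log2 -3.11, SE 0.33), and 70.7% of its 50-base stretches occur in other genes. Irgm2, the third regulatory Irgm gene, was higher in dendritic cells in NOD (log2 0.23, SE 0.06, edgeR adjusted p = 0.00667). In NOD.Idd2 its log2 difference was 0.16 (SE 0.07, adjusted p = 0.0473), lost with the replicate block (0.0591) and in 7 other alternatives. Tgtp2, the near copy of Tgtp1, was higher in NOD dendritic cells by 0.98 on the log2 scale (SE 0.22, adjusted p = 0.00127). In NOD.Idd2 its log2 difference of 0.52 (SE 0.22) lay at the threshold and was lost in 8 alternatives.

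Between the strains, no member passed in B cells. By edgeR's quasi-likelihood test 0 of 10 were called, where 0.16% of 15011 genes were, and 0 of 10 had an unadjusted p under 0.05, against 6.4% of all genes. With the replicate number as a block, edgeR also called 0, where 156 of the 15011 genes were called. In that fit the unadjusted p was 0.00926 for Gbp4 (adjusted 0.173) and 0.0398 for Gbp3 (adjusted 0.295), and above 0.05 for the other members. DESeq2 and limma-voom also called 0. The members' median log2 change, NOD.Idd2 minus NOD, was 0.01 (all genes 0.0066), and their values ran from -0.12 for Gbp4 to 0.29 for Tgtp1. Gbp3 was the 1 member whose groups did not overlap, higher in NOD.Idd2 (log2 0.09, SE 0.05, edgeR adjusted p = 0.821). Over all genes 6.8% were separated in that direction. For the well-measured genes the 95% intervals of the fold were narrow: Gbp5 0.947 to 1.07, Irgm1 0.907 to 1.10, Gbp9 0.895 to 1.14, Igtp 0.872 to 1.06 and Gbp2 0.945 to 1.25. For Tgtp1 the interval ran from 0.614 to 2.43, so a difference of that size was not detectable at its 31 to 90 counts.

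In dendritic cells 0 of 10 members were called as well, where 1.29% of 14441 genes were, and 8 of 10 had a fitted change below 0, against 49.8% of all genes. The median of the members was -0.17 (all genes 0.0006). DESeq2 and limma-voom called 0 of 10, and 5 of 10 had an unadjusted p under 0.05 by edgeR (Gbp5, Gbp7, Igtp, Iigp1 and Tgtp1), against 11.3% of all genes. In 4 of these, all but Gbp7, every NOD.Idd2 library was below every NOD library, as it was in 9.41% of all genes. As these are bulk samples, fewer cells of a type and less RNA per cell cannot be told apart here or in any comparison above.

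Igtp had the lowest adjusted p of the members in dendritic cells. Its NOD libraries were at 31.7 to 39.0 CPM and its NOD.Idd2 libraries at 28.2 to 30.0, a fold of 0.828 (95% interval 0.734 to 0.935, log2 -0.27, SE 0.08, edgeR adjusted p = 0.165). It passed with no filter on low counts (0.0391) and without NOD dendritic cell replicate 1 (0.0176). Gbp5 was at 64.1 to 74.9 CPM in NOD and 58.5 to 60.3 in NOD.Idd2, a fold of 0.874 (0.791 to 0.966, adjusted p = 0.253). Tgtp1 had a fold of 0.592 (0.408 to 0.858, adjusted p = 0.219) and Iigp1 of 0.708 (0.508 to 0.988, adjusted p = 0.417), from 8 to 75 counts per library. These 4 genes come from chromosomes 3, 11 and 18. Gbp7 had a fold of 0.859 (0.753 to 0.981, adjusted p = 0.349), and passed without NOD dendritic cell replicate 3 (0.0388), the NOD library nearest to NOD.Idd2.

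The other members were closer to equal between the strains in dendritic cells. Irgm1 had a fold of 0.926 (95% interval 0.840 to 1.02), Gbp4 of 0.901 (0.770 to 1.06), and Gbp2 of 0.966 (0.880 to 1.06). For Gbp3 the interval was 0.891 to 1.13 and for Gbp9 0.913 to 1.10. The range of the 3 NOD libraries was wide for several of them. All 10 members were above their group mean in NOD dendritic cell replicate 2, and 1 of 10 was in NOD dendritic cell replicate 1. Summed macrophage and monocyte markers did not overlap between the strains' dendritic cells, at 1094 to 1245 CPM in NOD and 1300 to 1329 in NOD.Idd2, with 1 of the 9 markers called (Cd163, higher, log2 0.77, adjusted p = 0.0259) and none at 0. Of the 9 log2 changes, 5 were above 0 and 4 below, with a median of 0.04. The part of these markers in the members' values was not tested.

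**Figure D4:**
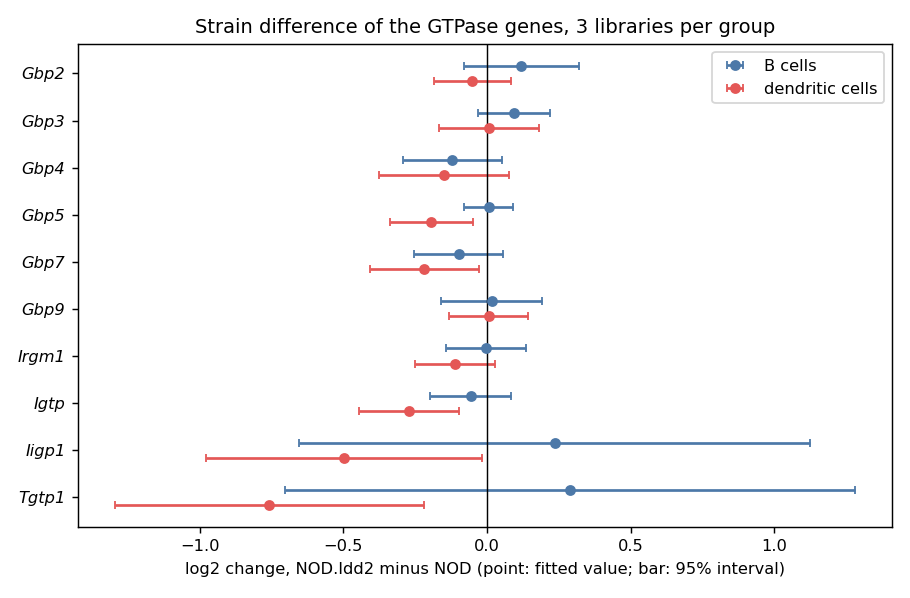
Points give the fitted log2 change of NOD.Idd2 minus NOD (x axis) for each of the 10 genes, in B cells (blue) and dendritic cells (red), with 95% intervals, 3 libraries per group. Most red points lie left of 0, down to -0.76 for Tgtp1, and the blue points lie on both sides of 0. Tgtp1 and Iigp1 have the widest bars.

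The strain effect in dendritic cells minus that in B cells was tested in the fit of all 12 libraries. None of the 10 members passed edgeR's test, where 0.109% of 16588 genes did, and 2 had an unadjusted p under 0.05, against 8.22% of all genes. These were Gbp5 (adjusted p = 0.474) and Igtp (adjusted p = 0.605). DESeq2 and limma-voom called 0. All 10 fitted differences were below 0, with a median of -0.16, while 53.8% of all genes were below 0. The fitted difference was -0.22 (SE 0.08) for Gbp5, -0.23 (SE 0.11) for Igtp and -1.09 (SE 0.53) for Tgtp1. A strain effect that differs between the cell types was therefore not shown for any member.

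Genes of the receptor, its kinases and the interferon regulatory factors were set beside the members. Of 18 genes of interferon gamma signalling, 17 were tested, and in NOD 11 were higher and 3 lower in dendritic cells, beside 37.7% and 38.7% of all genes. In NOD.Idd2 9 were higher and 2 lower, beside 36.7% and 38.9%. Ifngr1, the ligand-binding receptor chain, was at 117 ± 3.90 CPM in NOD B cells and 764 ± 38.6 in NOD dendritic cells (SD, n = 3, log2 2.70, SE 0.05). The receptor-associated kinase gene Jak2 was at 194 ± 5.06 and 1081 ± 36.2 CPM (log2 2.48, SE 0.04), and Jak1 in the other direction at 914 ± 29.2 and 394 ± 11.1 (log2 -1.21, SE 0.04). The second receptor chain Ifngr2 (log2 0.50, SE 0.06) and Irf1 (log2 0.71, SE 0.08) were higher in NOD dendritic cells, and Irf8, a factor needed for dendritic cell development, was lower (log2 -0.34, SE 0.08). In NOD.Idd2 Irf8 did not pass, although its dendritic cell libraries (385 to 412 CPM) were below its B cell libraries (438 to 458 CPM). Between the strains, 0 of the 17 passed in B cells, where 0.16% of all genes did. Ifng itself had 5 to 17 counts in the B cell libraries and 0 to 2 in the dendritic cell libraries. The fitted cell type differences of all 10 members were smaller in size than those of Ifngr1 and Jak2 in both strains. Gbp2 came nearest, at log2 2.26 in NOD and 2.07 in NOD.Idd2. In NOD the 95% interval of Iigp1 (log2 1.54 to 2.87) reached past the fitted values of both genes.

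Other interferon gamma targets gave 0 calls between the strains of 23 in B cells and 1 of 27 in dendritic cells, where 0.16% and 1.29% of all genes were called. The 1 was Nlrc5, the transactivator of MHC class I genes, at 186 ± 6.78 CPM in NOD.Idd2 dendritic cells against 230 ± 11.0 in those of NOD (SD, n = 3, log2 -0.29, SE 0.05, edgeR adjusted p = 0.0166). It was lost in the fit of all 12 libraries (0.249), without NOD replicate 2 (0.0674) and without NOD.Idd2 replicate 1 (0.0549), 2 (0.149) or 3 (0.115). In the list 22 of 27 changes were below 0 in dendritic cells, with a median of -0.11, against 49.8% below 0 and a median of 0.0006 over all genes. Ifi47, an immunity-related GTPase also counted as a target, was lower in dendritic cells than in B cells in both strains (log2 -0.54, SE 0.06, and -0.89, SE 0.06), with a strain change of -0.23 in dendritic cells (adjusted p = 0.188).

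Targets of type I interferon, the cytokines that act through a receptor of their own, were examined alike. In dendritic cells 1 of 22 was higher in NOD.Idd2 and 4 were lower, where 1.29% of all genes passed in either direction. The median was -0.25, and 21 of 22 changes were below 0, against 49.8% of all genes. The lower ones were Oas1a (log2 -0.49, SE 0.08), Oas2 (-0.62, SE 0.10) and Oasl2 (-0.65, SE 0.13), of the oligoadenylate synthetase family that senses double-stranded RNA, and Zbp1 (-0.51, SE 0.09), a sensor of Z-form nucleic acids. Ifi27l2a was higher (log2 0.52, SE 0.11). These calls also turned on single libraries: without NOD.Idd2 dendritic cell replicate 1 the edgeR adjusted p was 0.0800 for Oas1a, 0.161 for Oasl2, 0.116 for Zbp1 and 0.0672 for Ifi27l2a, and without replicate 3 it was 0.0609, 0.194, 0.122 and 0.123. Without NOD.Idd2 replicate 2 or NOD replicate 2 the calls of Oasl2, Zbp1 and Ifi27l2a were lost (0.0592 to 0.331), and that of Ifi27l2a also without NOD replicate 3 (0.0559). Oas2 passed with any 1 library left out, and in the fit of all 12 libraries Zbp1 alone passed (0.0540 to 0.209 for the other 4), while limma-voom lost Oasl2 (0.0747). In B cells 20 of 21 changes were above 0, with a median of 0.25, while 47.4% of all genes were below 0. Of the 21, 0 passed edgeR's test, where 0.16% of all genes did, and 8 had an unadjusted p under 0.05, against 6.4% of all genes. With the replicate number as a block, 3 of the 21 passed (Ifit1, Ifit3 and Ifi27l2a). In that fit 156 of 15011 genes passed, a share at which 0 of the 10 GTPase members is no contrast.

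**Figure D5:**
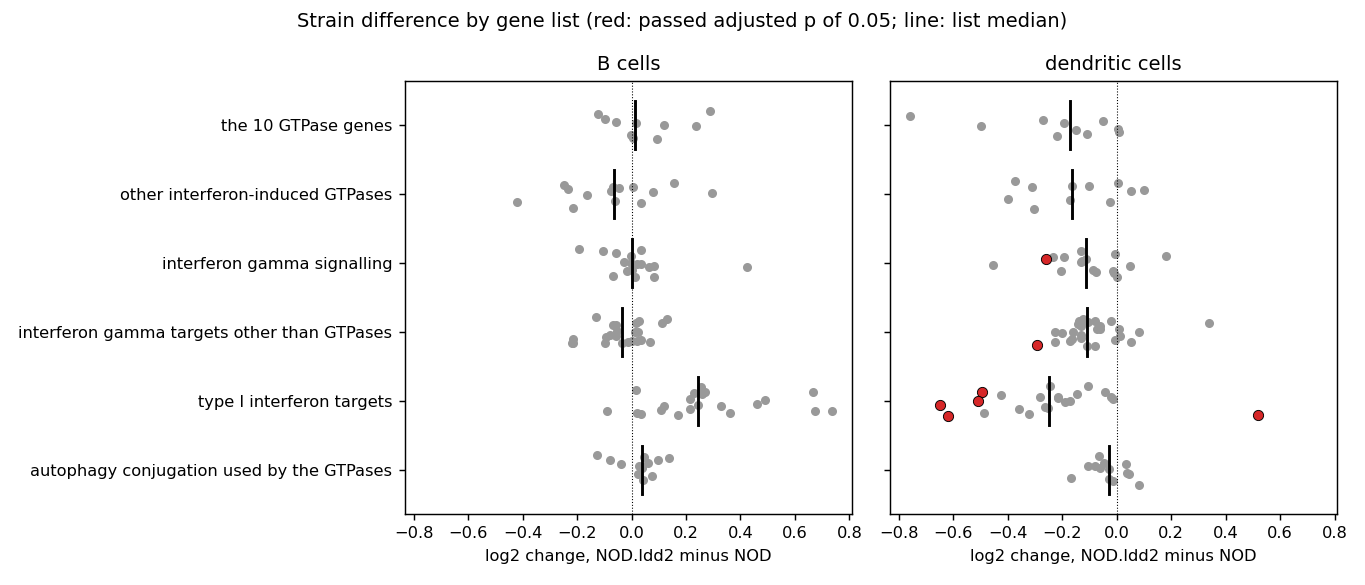
Every point is a tested gene, placed by its log2 change of NOD.Idd2 minus NOD (x axis) in B cells (left) and dendritic cells (right), with the gene lists as rows, a line at each list's median and red points for genes past an adjusted p of 0.05. The medians in dendritic cells are -0.17 for the 10 GTPase genes and -0.25 for type I interferon targets, and red points occur in the right panel alone.

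Within groups the members varied together to different degrees. Over the 12 libraries, each centred on its group mean of log2 CPM, the correlation of a member with the mean of the others ran from 0.21 for Gbp7 to 0.67 for Igtp. Of 10417 other genes with a mean of at least 5 CPM, those most like the members' mean over these libraries were Slc44a5 (r = 0.94), Dzip1 (0.90), Sumf1 (0.89), Rfc4 (0.89), Otulinl (0.89), Stra6l (0.86), Tyrobp (0.86) and Pip4k2a (0.84). The median r was 0.07, and 19 genes were above 0.8. None of the 8 is on the interferon lists, which hold a small part of the 10417 genes, so their absence among 8 says little. The nearest genes of these lists were Ifih1 (rank 31, r = 0.77) and Psmb8 (rank 33, r = 0.77). These values are a description: the libraries share groups and depth, and the low counts of Iigp1 and Tgtp1 weigh on the mean.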

How the data were processed

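Poly(A)-selected RNA (Trizol, KAPA RNA HyperPrep) was sequenced in 12 libraries, 3 per group, per the labels' protocols. Per the submitters' processing notes, STAR (version written as 0.12.2) and GRCm38 were used; which counter, annotation and strand setting were applied is not given in the sources used here. Raw counts per gene symbol were deposited, and these counts were the values analysed. Without a known strand setting, overlapping genes cannot be fully separated.

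CPM used TMM factors in edgeR 4.0.16 (R 4.3.3). Genes were kept by filterByExpr (minimum count 10, minimum total 15) and tested with glmQLFit and glmQLFTest, the quasi-likelihood test of edgeR, and p-values were adjusted by Benjamini-Hochberg over all genes tested, at 0.05. Strain effects were fitted on the 6 libraries of a cell type, the difference of strain effects and the cell type comparisons on all 12. The SE is the log2 change over the root of F, and 95% intervals use the t quantile. Alternatives were DESeq2 1.42.0, limma-voom (limma 3.58.1), RLE factors, other filters, the other choice of libraries, the replicate number as a block, and leaving out libraries. The fits were tested on simulated data. At the 0.05 threshold, false calls made up 10.2% of calls for strain in B cells and 8.49% in dendritic cells. They were 3.19% for the difference of strain effects, and 3.67% (NOD) and 6% (NOD.Idd2) between cell types. Recovery of 1.5-fold changes was 73.1% for strain in B cells, 91.0% in dendritic cells and 46.3% for the difference. Between cell types it was 80.6% (NOD) and 85.1% (NOD.Idd2).

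The 10 members, all gene lists and the tests were chosen with earlier results of these data known. All members were named. Of the other lists, genes called between strains were named, with Ifng, Ifngr1, Ifngr2, Jak1, Jak2, Socs1, Irf1, Irf8, Irgm2, Gbp2b, Gbp6, Tgtp2 and Ifi47 whatever their values, and the 8 genes most like the members' mean. Socs1 passed in no comparison. A result for a gene that the rule would name is not reported here. The alternatives for named genes that are not members were added after seeing the data. Protein sequences were not used here.

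The labels number the libraries of each group 1 to 3. In the data, the centred log2 values of same-numbered B cell libraries had correlations of 0.837, 0.688 and 0.922, over 9783 genes with a mean of at least 5 CPM. NOD 2 with NOD.Idd2 1 (0.684) and NOD 1 with NOD.Idd2 2 (0.606) were close behind, so a pairing by number is only a hint from the data. The reported tests used no pairing, and the replicate block was run as an alternative. In dendritic cells the values were -0.0085, 0.063 and 0.032, which gives no pairing. Counts per library limit the precision of low genes, and the intervals cover the spread between these libraries only.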

Additional observations from a re-analysis of the deposited data

How the results depend on the processing

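Counts of genes called between the strains moved with the tool and the libraries. In B cells 24 genes were called between strains, against 122 with DESeq2, 42 in the fit of all 12 libraries, 156 with the replicate block, 46 without both replicate 3 libraries and 13 to 18 with 1 library left out. In dendritic cells the count of 186 became 296 with DESeq2, 94 in the fit of all 12 libraries, 700 with no filter on low counts and 63 (without NOD.Idd2 replicate 2) to 332 (without NOD replicate 3) with 1 library left out. For the difference of strain effects the count of 18 became 114 with DESeq2, 33 with no filter, 56 with the replicate block and 7 to 19 with 1 library left out. The cause was not tested.

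Members called stayed at 0 in B cells and for the difference of strain effects in every alternative run. As few of all genes were called there, a steady 0 of 10 says little about the members. In dendritic cells the count of 0 became 1 with no filter and 0 to 1 with 1 library left out. Between cell types it was 5 to 8 in NOD (7 as reported) and 5 to 6 in NOD.Idd2 (6 as reported). Over all genes the calls there ran from 11060 to 13614 in NOD (12675 as reported). In NOD.Idd2 they ran from 10979 to 13193 (12552 as reported). The replicate block changed no call of a member, with 0 called in B cells, 0 in dendritic cells, 0 for the difference, and 7 and 6 between cell types.

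The log2 values below changed sign in at least 1 alternative. With 1 library left out, strain effects in B cells ran from -0.0086 to 0.018 for Gbp5, -0.061 to 0.060 for Gbp9, -0.23 to 0.49 for Iigp1, -0.062 to 0.034 for Irgm1 and -0.26 to 0.51 for Tgtp1. In dendritic cells they ran from -0.072 to 0.070 for Gbp3, -0.23 to 0.013 for Gbp4 and -0.059 to 0.075 for Gbp9. The difference of strain effects ran from -0.12 to 0.13 for Gbp4 and -0.093 to 0.055 for Gbp9. Dendritic cells against B cells ran from -0.15 to 0.037 for Gbp9 and -0.0074 to 0.19 for Igtp in NOD, and from -0.095 to 0.67 for Tgtp1 in NOD.Idd2. In the fit of all 12 libraries the strain effect was -0.012 for Gbp3 and -0.011 for Gbp9 in dendritic cells and 0.00072 for Irgm1 in B cells. Without both replicate 3 B cell libraries it was -0.0062 for Gbp5 and 0.058 for Irgm1 in B cells, and Tgtp1 in NOD.Idd2 was at -0.026 between cell types. Depth limits Iigp1 and Tgtp1, at 8 to 90 counts per library.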

Other observations

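Genes of the autophagy conjugation machinery, which loads the GTPases onto pathogen vacuoles, were looked at beside the members. The list also held Sqstm1, Trim21 and Ube2l6. Of 13 genes tested, 0 passed edgeR's quasi-likelihood test between the strains in either cell type. Over all genes 0.16% passed in B cells and 1.29% in dendritic cells. An unadjusted p under 0.05 was seen for 0 of the 13, against 6.4% and 11.3% of all genes. Between the cell types 6 were higher and 1 lower in NOD dendritic cells, beside 37.7% and 38.7% of all genes. In NOD.Idd2 5 were higher and 2 lower, beside 36.7% and 38.9%. Gabarapl1, an LC3 relative, was at 4.53 CPM in NOD B cells and 15.1 in NOD dendritic cells (log2 1.74, SE 0.10, edgeR adjusted p = 4.75e-09). Atg7, the E1-like enzyme of the pathway, was at 13.7 and 31.0 CPM (log2 1.17, SE 0.07), and Atg3, the E2-like enzyme, at 58.4 and 111.6 CPM (log2 0.93, SE 0.06). Map1lc3b, which encodes LC3B, was lower in NOD dendritic cells (log2 -0.39, SE 0.08). These genes were picked as examples after their values were seen, and cell type and sex cannot be told apart in them.

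Gbp2b was at 54.9 to 64.2 CPM in NOD dendritic cells and 45.9 to 53.8 in NOD.Idd2 dendritic cells, with no overlap and an edgeR adjusted p of 0.127 (log2 -0.30, SE 0.08).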
